A study of Mus musculus with 6 samples.

Results

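The dystrophin-glycoprotein complex was read as the 7 rows Dmd, Utrn, Dag1, Sgca, Sgcb, Sgcd and Lama2 of a table of raw counts for 17447 gene symbols. The rows were chosen by gene symbol, and all 7 were found. Total RNA from the hearts of wild type mice had been sequenced in 6 libraries, 3 from mice with chronic kidney disease (CKD) and 3 from sham-operated mice. CKD was produced in 2 operations that removed the poles of the left kidney and then the whole right kidney. Sham mice had the anaesthesia, the opened abdomen and the exposed kidneys but kept all renal tissue. Genotype, tissue and batch label were shared by all 6 samples, and the labels give no age, sex or strain. The labels number the samples without saying that each is a separate animal.

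The complex joins the contractile cytoskeleton of a muscle cell to the basement membrane outside it. Dystrophin binds actin inside the cell and the transmembrane beta-dystroglycan at the membrane. Alpha-dystroglycan, cut from the same precursor as beta-dystroglycan, carries a sugar chain that holds laminin. The sarcoglycans form a membrane subcomplex beside dystroglycan, and their loss in patients causes limb-girdle muscular dystrophy, often with cardiomyopathy. Utrophin is the close relative of dystrophin that can take its place at the membrane in dystrophin-deficient mouse muscle. Loss of dystrophin causes Duchenne muscular dystrophy, in which the heart is also affected.

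The CKD columns were checked before any level was read. Spearman correlations over the 17447 rows were 0.984 to 0.987 within the 3 pairs of CKD columns and 0.982 to 0.985 within the 3 pairs of sham columns, but -0.0586 to -0.0528 over the 9 pairs of a CKD with a sham column. Utrn held 3, 3 and 5 counts in CKD columns, against 1236, 1288 and 1951 in sham columns. Sgcb held 31, 28 and 24 counts in CKD columns, against 1992, 2056 and 2423 in sham columns. Ranked among all rows of a group, the 7 members had a median at percentile 52.9 in CKD and 94.96 in sham. For the 10 rows of ventricular cardiomyocyte markers the median percentile was 29.4 in CKD and 99.96 in sham. For this reason the 7 genes were read in sham hearts, and no comparison of CKD with sham was made. Sham 1, 2 and 3 held 10480788, 10474487 and 12669724 counts, and levels are given in CPM, the count scaled to a column total of 1000000. A count of 0 allows up to 3 counts, or 0.237 to 0.286 CPM in sham hearts, a limit that covers counting error alone.

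Which starts feed each row bears on how the levels can be read, so the 250 bases before the starts that RefSeq lists on the GRCm38.p6 build are shown for Dmd, for 2 sarcoglycans of nearly equal count and for Lama2. Dmd has 2 listed starts far apart on chromosome X. The first opens the full-length transcript, whose coding sequence spans 11034 bases in the GENCODE annotation. The second opens short transcripts with coding sequences of 1851 and 1812 bases, which lack the actin-binding end. A gene-level count adds the reads of both, and the table cannot split them. Capitals mark every match, on either strand, to the E-box CANNTG (bound by myogenic and other basic helix-loop-helix factors), to the CArG box (bound by serum response factor), to the GC box GGGCGG or to TATAAA, and overlapping matches run together.

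Dmd full-length start, chrX:82948620-82948869, plus strand: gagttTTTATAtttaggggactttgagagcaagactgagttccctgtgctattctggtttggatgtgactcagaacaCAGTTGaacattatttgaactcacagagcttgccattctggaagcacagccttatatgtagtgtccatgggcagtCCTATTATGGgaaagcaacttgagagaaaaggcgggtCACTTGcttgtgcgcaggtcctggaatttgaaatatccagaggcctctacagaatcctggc
Dmd short start, chrX:85048045-85048294, plus strand: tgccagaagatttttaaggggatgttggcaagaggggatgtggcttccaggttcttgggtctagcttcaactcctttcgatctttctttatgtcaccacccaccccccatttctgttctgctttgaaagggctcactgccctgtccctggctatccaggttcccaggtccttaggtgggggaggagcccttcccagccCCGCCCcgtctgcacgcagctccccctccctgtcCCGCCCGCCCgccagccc
Sgca, chr11:94976328-94976577, minus strand: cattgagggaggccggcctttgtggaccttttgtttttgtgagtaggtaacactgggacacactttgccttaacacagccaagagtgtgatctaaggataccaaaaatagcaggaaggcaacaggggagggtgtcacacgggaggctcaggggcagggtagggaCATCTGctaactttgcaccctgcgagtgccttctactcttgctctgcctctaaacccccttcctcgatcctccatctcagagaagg
Sgcb, chr5:73647738-73647987, minus strand: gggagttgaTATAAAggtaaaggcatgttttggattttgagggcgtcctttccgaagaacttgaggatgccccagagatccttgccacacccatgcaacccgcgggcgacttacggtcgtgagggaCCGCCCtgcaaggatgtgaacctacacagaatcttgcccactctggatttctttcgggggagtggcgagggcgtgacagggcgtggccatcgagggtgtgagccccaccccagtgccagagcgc
Lama2, chr10:27616943-27617192, minus strand: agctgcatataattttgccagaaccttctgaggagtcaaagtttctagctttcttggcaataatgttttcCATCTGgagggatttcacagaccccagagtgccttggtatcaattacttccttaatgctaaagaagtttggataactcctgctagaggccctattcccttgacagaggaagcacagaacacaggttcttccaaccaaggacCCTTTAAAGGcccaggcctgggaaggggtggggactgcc

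The full-length Dmd window held 2 E-boxes, 1 CArG box and 1 TATAAA match, and the short-start window held 3 GC boxes and no match to the other 3 motifs. Their GC contents were 45.2% and 60.0%, against a median of 52.4% over 32851 listed windows. The Lama2 window also held 1 CArG box, as did 1.47% of all windows. The Sgca window held 1 E-box and the Sgcb window 1 GC box and 1 TATAAA match. Of all windows, 66.2% held an E-box, 32.7% a GC box and 12.4% TATAAA. These are matches of letters and no site was tested.

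All 7 genes stood high in the sham hearts. On the CPM scale, which is not corrected for transcript length, each averaged over 100 CPM, as did 1698 of the 17447 rows, and their percentiles ran from 92.8 for Utrn to 98.8 for Dag1. Dag1, which encodes both dystroglycans, had 599.8, 607.8 and 570.3 CPM in sham 1, 2 and 3, a mean of 593 ± 19.8 CPM (SD, n = 3). It had the most counts of the 7 in every heart.

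Dmd, which encodes dystrophin, had 1355, 1936 and 1903 counts in sham 1, 2 and 3. Scaled to the column totals this was 129, 185 and 150 CPM, a mean of 155 ± 28.1 CPM (SD, n = 3). The 95% Poisson interval of the sham 1 value, which covers counting error only, was 122 to 136 CPM, and sham 2 lay well above it. Utrn, which encodes utrophin, had 118, 123 and 154 CPM, a mean of 132 ± 19.5 CPM. Sham 3 was the high heart for Utrn and sham 2 the high heart for Dmd.

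The 3 sarcoglycans had similar CPM before any correction for length. Sgca, which encodes the single-pass alpha-sarcoglycan of striated muscle, had 203, 212 and 187 CPM, a mean of 201 ± 12.4 CPM (SD, n = 3). Sgcb, which encodes the beta-sarcoglycan found in many tissues, had 190.1, 196.3 and 191.2 CPM, a mean of 193 ± 3.31 CPM. Sgcd, which encodes delta-sarcoglycan, had 168, 181 and 184 CPM, a mean of 178 ± 8.37 CPM. No heart stood far from the others for any of them, and the values of Sgca and Sgcb overlapped across hearts.

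Lama2, which encodes the alpha-2 chain of the laminin that alpha-dystroglycan binds in muscle, had 152, 147 and 205 CPM, a mean of 168 ± 32.1 CPM (SD, n = 3). Sham 3 stood above the other 2 hearts. In the GENCODE annotation 631 exonic bases of Lama2 are also covered by a gene on the opposite strand, Gm48084. No source used here states whether counting used strand or how reads over both genes were handled. The effect of this overlap on the Lama2 level is therefore not known.

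**Figure D1:**
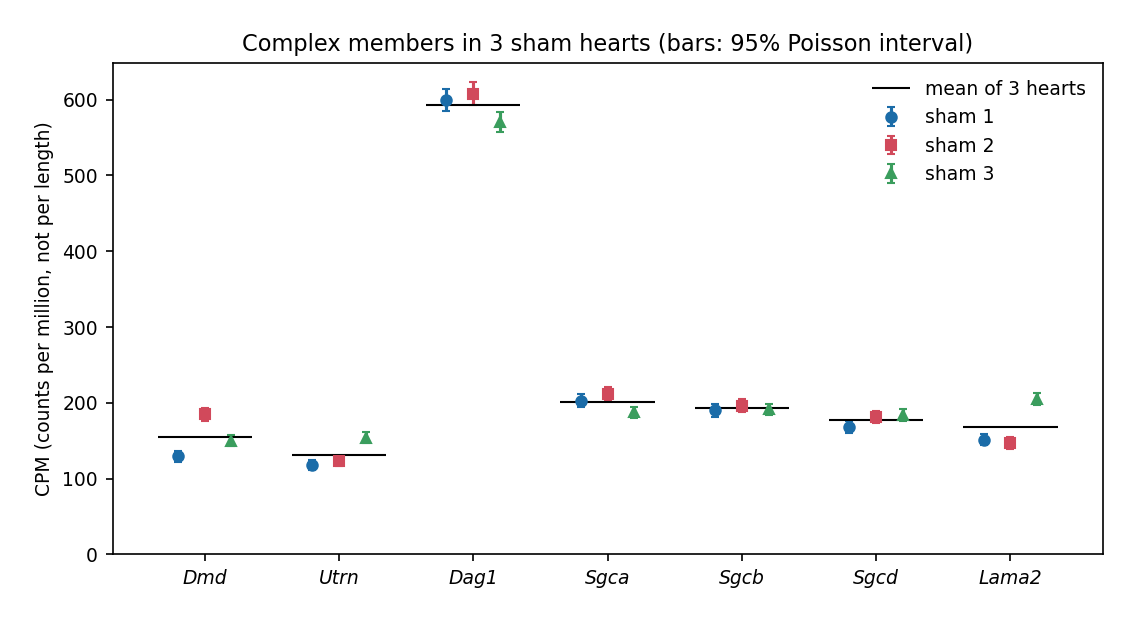
Level of each of the 7 genes in CPM (vertical axis, linear from 0, not corrected for length) in sham 1, 2 and 3, with 95% Poisson intervals as bars and the mean of 3 hearts as a line. Dag1 sits near 593 CPM in all hearts, the sarcoglycans between 168 and 212 CPM, and Dmd, Utrn and Lama2 show the widest scatter between hearts.

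The first comparison set dystrophin against utrophin, family members that share binding partners in part. A long transcript gives more reads per molecule, so levels were divided by transcript length, taken as the longest principal coding transcript in GENCODE, 14910 bases for Dmd and 12382 for Utrn. Dmd averaged 10.4 ± 1.88 CPM per kb and Utrn 10.6 ± 1.58 CPM per kb (SD, n = 3 each). Within a heart, the per-length ratios of Dmd to Utrn were 0.910, 1.25 and 0.810 for sham 1, 2 and 3. Dmd was thus higher in 1 heart and lower in 2. The mean log2 ratio of -0.04 ± 0.32 (SD, n = 3) lay within its own spread between hearts (exact two-sided paired permutation p = 1, also after Benjamini-Hochberg adjustment over the 4 pairs of members compared). With 3 hearts this test cannot go below 0.25, so it does not show that the levels are equal.

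The length chosen decided the sign of this small difference. Divided by coding length, 11034 bases for Dmd and 10290 for Utrn, the mean log2 ratio was 0.13 ± 0.32 with Dmd higher in 2 of 3 hearts. Divided by the merged length of all annotated exons it was -0.25 ± 0.32 with Dmd higher in 1 of 3. Length cancels when hearts are compared by the ratio of raw counts. That ratio was 1.10 in sham 1 (95% Clopper-Pearson interval 1.01 to 1.19), 1.503 in sham 2 (1.40 to 1.61) and 0.975 in sham 3 (0.915 to 1.04). The interval of sham 2 did not overlap those of the other hearts, so the hearts differed in this ratio by more than counting error. GENCODE also lists shorter coding transcripts of Utrn, with coding sequences of 560 to 2961 bases. Reads of the short transcripts of both genes enter all of these values.

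The second comparison set the sarcoglycans against each other, since their proteins assemble into one subcomplex. As raw counts in the same heart, Sgca over Sgcb was 1.07, 1.08 and 0.980 in sham 1, 2 and 3. Sgca over Sgcd was 1.21, 1.17 and 1.02, and Sgcb over Sgcd was 1.13, 1.08 and 1.04. Every ratio lay within 0.980 to 1.21, and for Sgca over Sgcd the interval of sham 3 (0.963 to 1.08) did not overlap that of sham 1 (1.13 to 1.29) or sham 2 (1.10 to 1.25). For the other pairs of sarcoglycans the intervals of the hearts overlapped.

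Per length, the order of the sarcoglycans was Sgca, Sgcd and Sgcb, at 116 ± 7.21, 110 ± 5.18 and 50.9 ± 0.873 CPM per kb (SD, n = 3 each), with principal transcripts of 1724, 1617 and 3786 bases. Sgca exceeded Sgcb in 3 of 3 hearts by a mean log2 ratio of 1.19 ± 0.08, and Sgcb was below Sgcd in 3 of 3 by -1.11 ± 0.06 (exact paired permutation p = 0.25 for each, the smallest that 3 hearts allow, and 0.5 after adjustment over the 4 pairs). Sgca exceeded Sgcd in 2 of 3 hearts by 0.08 ± 0.13, within the spread between hearts (exact p = 0.5, and 0.667 after adjustment). This order did not hold under other lengths. With coding lengths of 1161, 960 and 867 bases, Sgca was the lowest at 173 CPM per kb, beside 201 for Sgcb and 205 for Sgcd. With merged exons Sgcd, whose annotated exons add up to 8257 bases, was the lowest at 21.5 CPM per kb, beside 116 for Sgca and 47.5 for Sgcb. The data therefore fix no per-length order of these 3 genes.

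**Figure D2:**
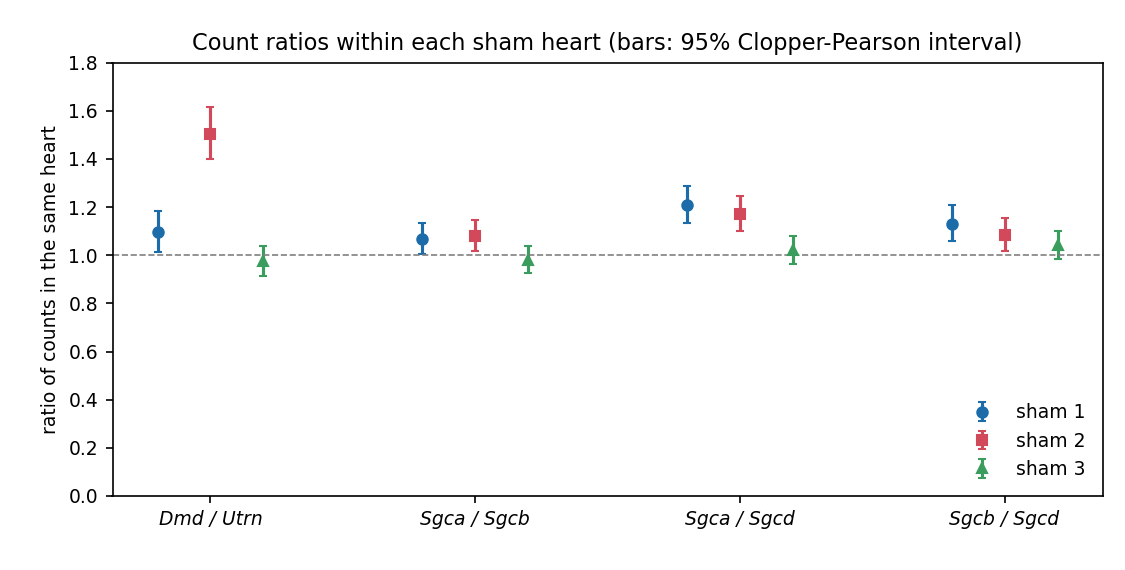
Ratio of raw counts of paired genes in the same heart (vertical axis, linear) for Dmd over Utrn and the 3 sarcoglycan pairs, with 95% Clopper-Pearson intervals as bars and a dashed line at equality. Dmd over Utrn runs from 0.975 to 1.503 with sham 2 apart, and the sarcoglycan ratios stay between 0.980 and 1.21.

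Ranked per transcript length among 16856 genes with a matched length, Dmd stood at percentile 70.9, Utrn at 71.4 and Lama2 at 80.2, while Sgcb stood at 92.6, Dag1 at 96.4, Sgcd at 96.6 and Sgca at 96.7. Some differences between members held under all 3 lengths and in every heart. Dag1 was above Dmd by 8.66 to 12.2-fold per transcript length, 13.5 to 19.1-fold per coding length and 12.3 to 17.4-fold per merged exon length. It was above Utrn by 8.10 to 19.5-fold and above Lama2 by 4.73 to 14.4-fold over the same settings. Sgca exceeded Dmd per length by 9.92 to 21.5-fold, Sgcb by 4.18 to 16.9-fold and Sgcd by 2.82 to 16.5-fold. Dag1 and the 3 sarcoglycan genes were thus above Dmd per length in every heart. Whether coverage falls along long transcripts in these libraries was not tested, since the table has 1 value per gene. Lama2 exceeded Utrn by 1.25 to 1.71-fold in every heart, while Lama2 over Dmd ran from 0.938 to 2.11 and crossed equality.

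**Figure D3:**
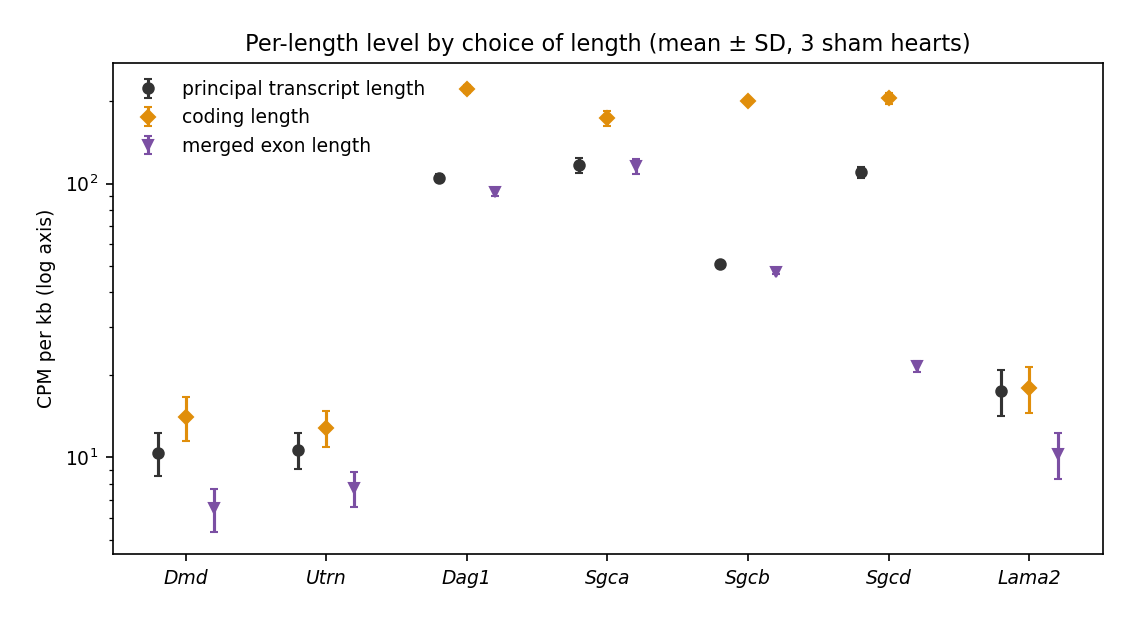
Per-length level in CPM per kb (vertical axis, log scale) of the 7 members under principal transcript, coding and merged exon length, as mean ± SD of 3 sham hearts. Dmd, Utrn and Lama2 lie between 6.50 and 17.9 under every length, below the other genes, while the order of the sarcoglycans changes with the length.

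The hearts differed for some members and hardly for others. The coefficient of variation (CV, the SD as a share of the mean) over 3 hearts was 1.72% for Sgcb, 3.33% for Dag1, 4.71% for Sgcd and 6.19% for Sgca. It was 14.8% for Utrn, 18.1% for Dmd and 19.1% for Lama2. The median CV of the 8864 genes with at least 10 CPM was 9.32%, with an interquartile range of 5.73% to 15.0%. For the 1698 genes with at least 100 CPM, a level that all 7 members passed, the median was 7.18%. By column total, Dag1 and the 3 sarcoglycan genes thus lay below both medians, and Dmd and Lama2 varied more than 82.6% and 84.5% of the genes with at least 10 CPM. This depended on the scaling for Sgca. With trimmed-mean (TMM) scaling between hearts the medians were 9.57% at 10 CPM and 8.77% at 100 CPM, and the CV of Sgca was 9.88%, above both. Dag1 at 6.90%, Sgcb at 5.79% and Sgcd at 7.01% stayed below both medians but were closer to them, while Dmd reached 22.1% and Lama2 16.7%.

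The direction of the scatter split the members. Dmd, Dag1, Sgca and Sgcb were highest in sham 2, and Utrn, Sgcd and Lama2 were highest in sham 3, but Sgcd was highest in sham 2 under each of 3 other scalings and the other 6 kept their heart. No member was highest in sham 1. Of all genes with at least 10 CPM, sham 1 was the highest heart for 36.9%, sham 2 for 23.5% and sham 3 for 39.6%. The lowest heart was sham 1 for 28.2% of them, sham 2 for 45.6% and sham 3 for 26.2%. Cell type markers moved between the same hearts. Of 10 ventricular cardiomyocyte markers 9 were highest in sham 2, with summed levels of 107705, 117204 and 105397 CPM in sham 1, 2 and 3. The exception was Myl2, highest in sham 1, at 11812, 10810 and 10565 CPM. Myh6 was the largest part of the sum, at 34590, 42320 and 37473 CPM. The 8 fibroblast markers were all lowest in sham 2, with 1962, 1021 and 2261 CPM. The 6 endothelial markers were also all lowest in sham 2, with 1279, 1075 and 1398 CPM, and so were the 6 macrophage markers, with 474, 367 and 589 CPM. Of 7 smooth muscle and pericyte markers 6 were lowest in sham 2, with 1117, 1049 and 1340 CPM. The 6 atrial markers were all highest in sham 1, with 2607, 71.5 and 518 CPM. The part of these markers in the levels of the members was not tested, and in bulk tissue fewer cells of a type and less RNA per cell cannot be told apart.

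**Figure D4:**
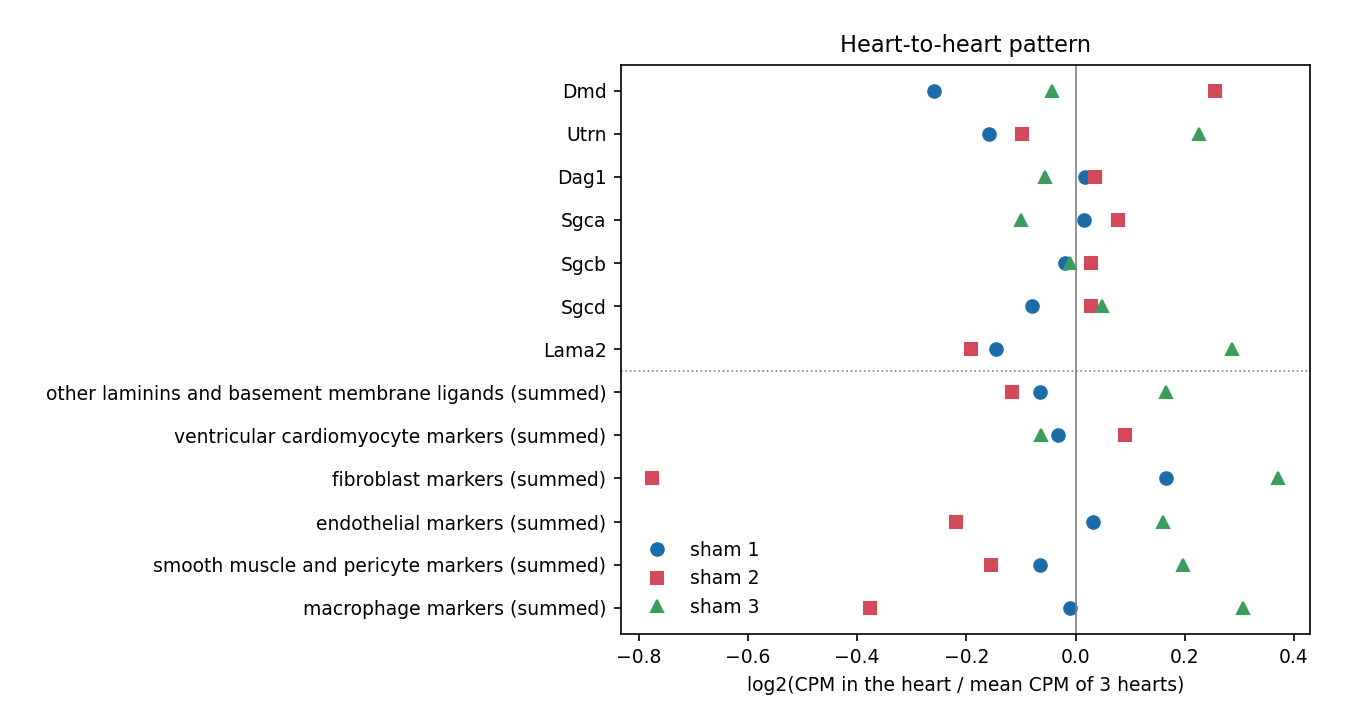
Level in each sham heart relative to the mean of 3 hearts (horizontal axis, log2 of CPM over mean CPM, 0 is the mean) for the 7 members and, below the dotted line, for the summed CPM of gene lists. Dmd and the ventricular markers have sham 2 to the right, while Utrn, Lama2 and the laminin list have sham 3 to the right. The fibroblast, endothelial, smooth muscle and pericyte, and macrophage lists also have sham 3 to the right.

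The genes with the most similar pattern over the 3 hearts were sought for Dmd, Utrn and Lama2 as those with the smallest largest difference in log2(CPM / mean CPM). For Dmd these were Nt5c1a, Fam161b and Pdzd2, with largest differences of 0.008, 0.013 and 0.014. For Utrn they were Ttc37, Rnf25 and Rbbp5, and for Lama2 they were Hps3, Prickle2 and Eml6. Over 3 hearts such likeness is common. Of 8861 genes compared, 126 lay within 0.1 of Dmd, 556 within 0.1 of Utrn and 277 within 0.1 of Lama2.

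The remaining proteins of the complex were measured too. Of 14 listed, 9 averaged at least 1 CPM, where 12491 of the 17447 rows did. Sgce, which encodes the broadly expressed relative of alpha-sarcoglycan, had 23.5, 15.0 and 24.2 CPM. Its per-length level was 0.0116 to 0.126 times that of Sgca. Sgcz, the zeta-sarcoglycan gene, gave 0, 1 and 0 counts and was at the limit of detection. Sspn, which encodes the sarcoglycan-associated sarcospan, had 291, 296 and 320 CPM, a mean of 302 ± 15.4 CPM (SD, n = 3). It had the highest CPM of the 14, and sham 2 and sham 1 lay close together below sham 3.

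Among the syntrophins, the adaptors that bind the tail of dystrophin, Sntb1 had 5.06, 3.06 and 7.18 CPM, and Sntb2 had 8.11, 8.02 and 9.94 CPM. Sntg1 gave 2, 0 and 0 counts and Sntg2 gave 0, 1 and 5. Of the dystrobrevins, which bind dystrophin and the syntrophins, Dtna had 71.3, 85.0 and 79.4 CPM and Dtnb 4.10, 2.77 and 3.08 CPM. Dtna exceeded Dtnb per length by 9.85 to 49.8-fold. Dtna was thus the higher of the pair in all 3 hearts. Nos1, the neuronal nitric oxide synthase that syntrophin anchors in skeletal muscle, averaged 0.819 CPM with 9, 6 and 13 counts. Drp2, a dystrophin relative of Schwann cells and brain, gave 4, 0 and 13 counts.

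All 17 listed genes that build the laminin-binding sugar of dystroglycan or supply its precursors averaged at least 1 CPM, and none reached 100 CPM. The median CV of these genes was 8.27%, and sham 1 was the highest heart for 7 of them, sham 2 for 3 and sham 3 for 7. For all genes with at least 10 CPM the median CV was 9.32%. Sham 1, 2 and 3 were highest for 36.9%, 23.5% and 39.6% of those genes.

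Of 14 other laminin chains and basement membrane ligands, 13 averaged at least 1 CPM and 11 of these were highest in sham 3, as were Lama2 and Utrn. Sham 3 was the highest heart for 39.6% of all genes with at least 10 CPM. It was also highest for 6 of 6 macrophage, 6 of 7 smooth muscle and pericyte, 5 of 8 fibroblast and 4 of 6 endothelial markers. Of the 10 ventricular markers it was highest for 0. The highest in CPM was Hspg2, which encodes perlecan, a dystroglycan ligand of basement membranes, at 726, 704 and 839 CPM. Lama1, the embryonic alpha-1 chain, gave 0, 2 and 0 counts. The 5 chains that follow were chosen with their values in view. Lama4, an alpha chain of vascular basement membranes, had 133, 105 and 134 CPM, and per length Lama2 was 0.664 to 1.13 times Lama4. Lama5 had 203, 210 and 251 CPM, and Lama2 was 0.488 to 0.972 times Lama5, below it in every heart under all 3 lengths. Lamb2, a beta chain of cardiac muscle laminin, exceeded Lamb1 per length by 3.08 to 6.34-fold. The gamma chain gene Lamc1 exceeded Lama2 per length by 1.89 to 3.48-fold.

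The parallel adhesion genes, which join laminin to the cytoskeleton through integrins or stabilise the costamere, all exceeded 1 CPM, and 9 of 11 exceeded 100 CPM. Des, which encodes the intermediate filament desmin, had the highest CPM at 2836, 2868 and 2617 CPM, and Ilk, the integrin-linked kinase gene, the lowest mean at 98.3, 86.9 and 103 CPM. Ank3, which encodes the membrane adaptor ankyrin-G, lay close to it at 94.1, 100.4 and 97.2 CPM and was below Ilk in sham 1 and sham 3. Itga7, the muscle laminin receptor chain, was also chosen with its values in view and had 204, 230 and 233 CPM. Dag1 exceeded it per length by 1.74 to 3.74-fold.

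Markers of 2 other tissues that also carry the complex were read in the same hearts. Of 10 skeletal muscle markers 1 averaged at least 1 CPM, 4 were at 0 counts in every heart, and their summed level was 3.05, 2.48 and 5.52 CPM in sham 1, 2 and 3. Myh1, Myh2 and Myh4, the fast myosins of skeletal muscle, were among those at 0. Of 6 Schwann cell markers 5 averaged at least 1 CPM, with summed levels of 58.0, 50.5 and 47.5 CPM. Most of that sum was Mal, which encodes a myelin and membrane-raft protein, at 32.2, 36.1 and 36.1 CPM, and the other 5 summed to 25.9, 14.4 and 11.4 CPM. The sham samples, labelled as heart, thus held the listed ventricular cardiomyocyte markers at high levels, and skeletal muscle markers were near 0. Atrial markers were present too, with summed levels of 2607, 71.5 and 518 CPM in sham 1, 2 and 3.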

How the data were processed

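Total RNA of mouse heart was sequenced in 6 libraries. The tools Trimmomatic, HISAT2, HTSeq and DESeq and the build mm9 are named in the submitters' processing notes, and no source used here gives their versions, settings, strandedness or annotation. What the authors deposited is a table of raw counts by gene symbol with 1 column per sample, matched by column name. CPM is the count divided by the column total, times 1000000. Transcript lengths came from GENCODE M21 (GRCm38), another build than the one named, so they approximate the counted exons; 16856 of 17447 symbols matched. For each gene the longest principal coding transcript was used. Coding lengths came from GENCODE because no protein table was used here, and merged exon lengths were added after the data had been seen.

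Levels are means with SD over 3 sham hearts. Intervals (95%, Poisson or Clopper-Pearson) and the floor of 3 counts cover counting error only. Pairs of members were tested within hearts by an exact two-sided paired permutation (sign) test with Benjamini-Hochberg adjustment over 4 pairs, at a threshold of 0.05. No fit across genes was made. Scaling alternatives used edgeR 4.0.16 (TMM) and DESeq2 1.42.0 (size factors). Motifs were searched in RefSeq windows of 250 bases. Scripts were tested on simulated data. Genes named beyond the members were the highest and lowest of each list, those under 1 CPM, all sarcoglycan, sarcospan, syntrophin and dystrobrevin genes, and the 3 genes of nearest pattern. Some genes that this rule names are not reported here. Members, lists and tests were chosen with earlier results of these data known. A p-value here sets the mean within-heart log2 ratio of a pair of genes against its spread over 3 hearts, which may be technical. The length chosen sets where equality of the pair lies.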

Additional observations from a re-analysis of the deposited data

How the results depend on the processing

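No paired analysis was possible because the CKD and sham columns, which share replicate numbers, were not compared; the tests between genes paired values within a sham heart. Under coding length the mean log2 per-length ratio changed sign for Dmd over Utrn (0.13), Sgca over Sgcb (-0.22) and Sgca over Sgcd (-0.24), and under merged exon length for Sgcb over Sgcd (1.14). The changed length alone sets these shifts, since counts were the same. Leaving out 1 heart gave -0.22 to 0.092 for Dmd over Utrn, with the sign changed without sham 1 or without sham 3. Scaling cancels within a heart, so these ratios were equal under every scaling. Without the 100 highest rows in the column total, mean levels were 231 CPM for Dmd, 196 for Utrn, 883 for Dag1, 299 for Sgca, 287 for Sgcb, 265 for Sgcd and 249 for Lama2, since the total is smaller. With TMM or DESeq2 size factors every member's mean level moved by less than 1 SD. Both sets of factors had been rescaled to keep the average column total, so these scalings could hardly move a mean level. The median CV of the members was 9.88% with TMM and 10.3% with size factors, against 6.19% by column total. TMM shifted genes by a median of -0.028, 0.067 and -0.039 log2 in sham 1, 2 and 3. Under both scalings the CV rose for Dmd, Dag1, Sgca, Sgcb and Sgcd and fell for Utrn and Lama2. A cause beyond this shift was not tested. By column total the median CV of the members was 2.96% without sham 3 and 8.70% without sham 1. The median CV was 15.7% over all genes with at least 1 count in a heart, against 9.32% over those with at least 10 CPM. Medians at 100 CPM and under other scalings were added after the data had been seen. A mean of 3 hearts cannot shift by 1 SD when 1 is dropped, so those settings say nothing about levels. Depth limits the rows of 0 to 3 counts, such as Sgcz.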
